A study of Mus musculus with 8 samples.

Results

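Adenylyl cyclases are the membrane enzymes that make cyclic AMP (cAMP) from ATP, and the transcripts of 8 of their genes (Adcy1, Adcy2, Adcy3, Adcy5, Adcy6, Adcy7, Adcy8 and Adcy9) were followed here in mouse hippocampus. They were taken by gene symbol, 1 entry each, from a count table of 46078 gene entries, and all 8 were among the 15859 genes with enough counts to test. The libraries came from 2 groups of C57BL/6J mice aged 9 weeks, namely 4 of mice that carried the Tg(Camk2a-cre)2Gsc transgene as Cre+/- (Cre, a line also called CamiCre) and 4 of wild-type mice (WT). In that line Cre recombinase is expressed under control of Camk2a sequences, in excitatory neurons of the forebrain. The labels name no floxed allele in either group, so the comparison asks what the transgene alone goes with. They do not say whether each library is a separate animal, so the p-values rest on the variation among the sequenced samples, which may be technical.

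The membrane cyclases are switched on by the stimulatory G protein Gs, which receptors for dopamine, noradrenaline and other transmitters release, and they differ in what else they respond to. Adcy1 and Adcy8 are stimulated by calcium with calmodulin, and so couple synaptic calcium entry to cAMP. Adcy3 is placed with them by sequence. Adcy2 and Adcy7 are stimulated by G protein beta-gamma subunits in the presence of Gs. Adcy5 and Adcy6 are inhibited by calcium and by the inhibitory G protein Gi, and Adcy9 stands apart by its poor response to the plant compound forskolin. In hippocampal neurons cAMP acts through protein kinase A and the EPAC exchange factors on synaptic strength, and the calcium-stimulated cyclases are known for their part in long-term potentiation and memory.

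Library totals ran from 21339996 to 27826871 counts in Cre and from 24289522 to 26950207 in WT. Levels are counts per 1000000 library counts after TMM normalization (CPM). The labelled tissue showed its defining markers, with Prox1 of dentate granule neurons at 94.7 to 136 CPM in Cre and 97.5 to 114 CPM in WT, and Fibcd1 of CA1 pyramidal neurons at 202 to 236 CPM in Cre and 223 to 250 CPM in WT. Syt2, for which the series is titled, separated the groups at 163 to 187 CPM in Cre against 32.7 to 41.4 CPM in WT. A pair of libraries stood apart by marker levels. Cre replicate 1 had the highest summed level of 12 microglia markers (596 CPM, with 453 to 463 CPM in Cre replicates 2 to 4 and 418 to 451 CPM in WT), and WT replicate 1 that of 5 choroid plexus markers (979 CPM, with 23.0 to 34.4 CPM in Cre and 24.4 to 32.7 CPM in WT replicates 2 to 4).

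The 8 genes lie on 6 chromosomes. In GENCODE M21, on the build GRCm38, Adcy1 spans chr11:7063489-7178506 (plus strand), Adcy2 chr13:68620043-68999541 (minus), Adcy3 chr12:4133103-4213525 (plus) and Adcy7 chr8:88272403-88329962 (plus). Chromosome 15 holds Adcy6 (98589973 to 98610076, minus) and Adcy8 (64697084 to 64922296, minus), and chromosome 16 holds Adcy5 (35154877 to 35305738, plus) and Adcy9 (4287529 to 4420498, minus). Their spans ran from 20.1 kb for Adcy6 to 379 kb for Adcy2, and their non-overlapping exons added up to 4.21 kb for Adcy2, the shortest, and 12.5 kb for Adcy1, the longest. Of the genes annotated over their exons on the opposite strand, Cenpo, which encodes a centromere protein and meets exons of Adcy3, was the only one tested, at 2.66 CPM in Cre and 2.71 CPM in WT. Since the strand setting of the counting is not given in the sources used here, reads of Adcy3 and Cenpo cannot be told apart with certainty.

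The promoter windows examined for the most and the least abundant member differ in sequence. RefSeq promoter windows (GRCm38.p6, 300 bases, of which the last 50 follow the start site) were matched for 6 of the 8 genes, Adcy1, Adcy2, Adcy3, Adcy5, Adcy7 and Adcy9, with 9 windows in all. Shown 5′ to 3′ on the gene's strand are the window of Adcy1 (chr11:7063183-7063482, plus strand) and the first of the 3 windows of Adcy7 (chr8:88282742-88283041, plus strand), with CpG dinucleotides in capitals.
Adcy1: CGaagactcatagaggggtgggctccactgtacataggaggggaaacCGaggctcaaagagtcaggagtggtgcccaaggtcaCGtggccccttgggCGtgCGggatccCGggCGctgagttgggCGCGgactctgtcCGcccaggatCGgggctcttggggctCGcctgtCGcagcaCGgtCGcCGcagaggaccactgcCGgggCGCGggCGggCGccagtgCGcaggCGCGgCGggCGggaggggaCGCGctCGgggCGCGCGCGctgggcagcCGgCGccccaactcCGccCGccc
Adcy7: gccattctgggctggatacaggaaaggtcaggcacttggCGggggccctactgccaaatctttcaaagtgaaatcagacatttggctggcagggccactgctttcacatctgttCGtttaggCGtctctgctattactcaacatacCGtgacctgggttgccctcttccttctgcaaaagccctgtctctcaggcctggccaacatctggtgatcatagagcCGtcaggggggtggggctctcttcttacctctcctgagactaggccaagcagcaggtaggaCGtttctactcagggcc
The Adcy1 window holds 37 CpG dinucleotides and is 74% G and C, and this Adcy7 window holds 6 and is 54.7% G and C. Over all 32851 windows of this length the medians were 7 CpG dinucleotides and 52.7% G and C. The windows of Adcy2 (32), Adcy5 (44) and Adcy9 (42) resembled that of Adcy1 in CpG number, the other windows of Adcy7 held 5 and 4, and Adcy3 had a window of each kind (33 and 7). Each Adcy7 window lay inside the annotated gene, the first from 88282742, downstream of its GENCODE M21 start at 88272403. No window at that start was examined. The Adcy3 windows, from 4133147 and 4133903, likewise lay inside the annotated gene, which starts at 4133103. The cAMP response element TGACGTCA, a palindrome, was in 0 of the 9 windows, against 1.79% of all windows. Its half-site, TGACG or on the other strand CGTCA, was in 2 of the 9 (Adcy7 and Adcy9), against 20.8% of all windows. A full element also holds both forms of the half-site. These letters describe the windows and show no binding.

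Per length, Adcy1 was by far the most abundant of the 8 in hippocampus of both groups. On the scale of CPM per kb of exon, which allows levels to be set between genes, Adcy1 averaged 99.9 ± 17.8 in Cre and 102 ± 4.84 in WT (SD, n = 4 each). It made up 47.1% ± 4.16 of the summed level per kb of the 8 genes in Cre and 47.4% ± 1.44 in WT (SD, n = 4 each). Next came Adcy2 with 37.7 ± 0.82 CPM per kb in Cre and 37.5 ± 0.86 in WT, and Adcy5, best known as the main cyclase of striatal neurons, with 27.0 ± 0.97 in Cre and 27.99 ± 1.10 in WT. Adcy9 followed with 22.1 ± 1.18 CPM per kb in Cre and 22.7 ± 1.04 in WT. Lower in the order stood Adcy3, known for its place in the primary cilium of neurons, at 11.9 ± 0.26 CPM per kb in Cre and 12.8 ± 0.70 in WT. Adcy6 had 8.80 ± 0.50 CPM per kb in Cre and 9.08 ± 0.20 in WT. Adcy8 had 2.82 ± 0.44 in Cre and 3.04 ± 0.26 in WT. Adcy7, best known from blood and immune cells, was lowest at 0.60 ± 0.15 CPM per kb in Cre and 0.60 ± 0.08 in WT.

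The order was Adcy1, Adcy2, Adcy5, Adcy9, Adcy3, Adcy6, Adcy8, Adcy7 in each of the 8 libraries. Of the 7 neighbouring pairs in it, 0 had ranges over the libraries that overlapped. The nearest neighbours were Adcy5 and Adcy9, 1.23-fold apart per kb, and the widest step was 4.91-fold between Adcy8 and Adcy7. From Adcy1 to Adcy7 the level per kb differed 170-fold. CPM without a length correction put Adcy5 above Adcy2, since the annotated exons of Adcy5 are longer. The level per kb rests on the annotated exons and says nothing of which isoform was made.

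**Figure D1:**
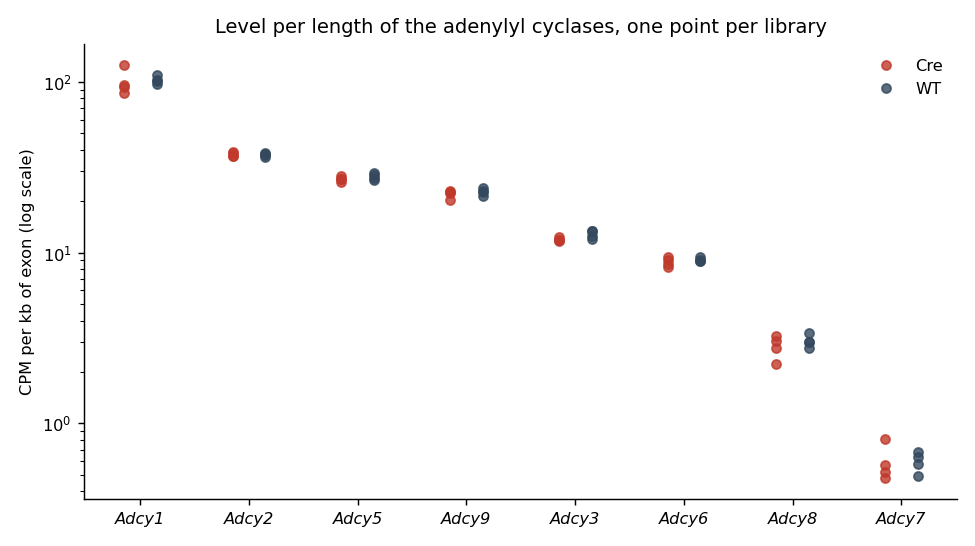
CPM per kb of exon (vertical axis, log scale) of the 8 adenylyl cyclase genes, 1 point per library, with Cre left of WT for each gene. The order from Adcy1 (85.3 to 126 CPM per kb) to Adcy7 (0.48 to 0.81 CPM per kb) holds in each library, while the groups overlap within each gene.

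Between the groups, 0 of the 8 genes passed the threshold, a Benjamini-Hochberg adjusted p under 0.05 in edgeR's quasi-likelihood fit of the whole table, and 0 passed with DESeq2 or limma voom. Over all 15859 genes, 0.0315% were called. At an unadjusted p under 0.05 there was 1 member, Adcy3, which lay lower in Cre. Of all genes, 3.50% had such a p, 1.45% with a lower level in Cre. The Cre and WT libraries were separated without overlap in 0 of the 8 members, against 2.31% of all genes. Fold changes of Cre over WT lay below 0 in 7 of the 8, where 49.8% of all genes lay below 0. On the log2 scale they ran from -0.11 (Adcy8) to 0.01 (Adcy2), and their median was -0.05, beside 0.0004 over all genes. Markers of glia lay mostly above 0, with all 8 astrocyte markers (median 0.11, 4 at an unadjusted p under 0.05), all 8 oligodendrocyte markers (median 0.15, 2 such) and 11 of 12 microglia markers (median 0.19, 6 such), of which 0 passed by edgeR. The groups did not overlap in 3 microglia, 2 astrocyte and 0 oligodendrocyte markers, against 2.31% of all genes. The summed levels of the microglia and of the astrocyte markers were higher in every Cre library than in any WT library. The part of glia in the values of the cyclases was not tested.

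**Figure D2:**
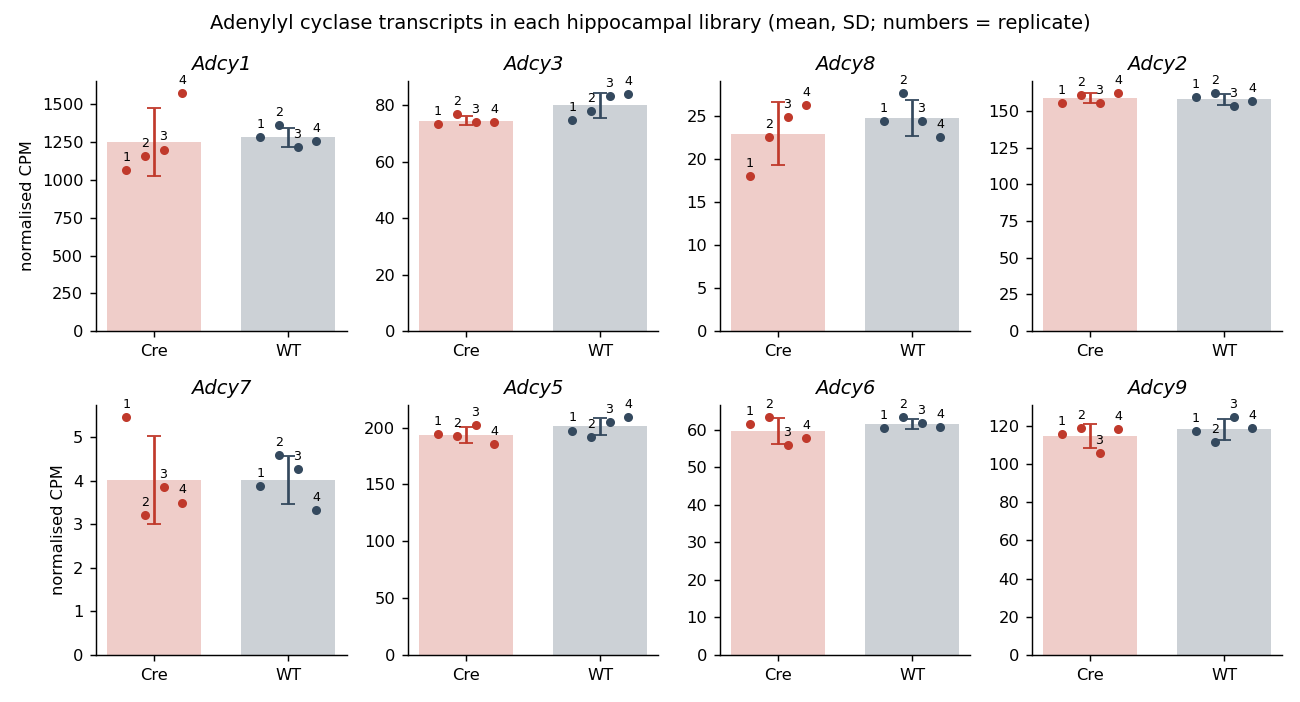
Normalised CPM (vertical axes, each from 0) of the 8 genes in Cre (left) and WT (right) libraries. Bars are means, error bars SD over 4 libraries, and points the libraries with their replicate numbers; Adcy1 in Cre ranges from 1068 to 1576 CPM around WT values of 1219 to 1363 CPM.

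Among the calcium/calmodulin-stimulated cyclases, Adcy1 spread most widely over the Cre libraries. It had 1068, 1159, 1202 and 1576 CPM in Cre replicates 1 to 4, and 1286, 1363, 1219 and 1261 CPM in WT replicates 1 to 4. Of the Cre libraries 3 lay below every WT library, and Cre replicate 4 lay above them all. The means were 1251 ± 223 CPM in Cre and 1282 ± 60.6 CPM in WT (SD, n = 4 each), a coefficient of variation of 17.9% in Cre and 4.73% in WT. Counting error is small here, since each library held 24527 to 38690 counts of Adcy1. The log2 fold change was -0.03 (SE 0.09), and its 95% confidence interval, as a change of Cre relative to WT, ran from -14.96% to 12.03% (adjusted p = 0.999 by edgeR; exact permutation p = 0.714 on log2 CPM, 2-sided, n = 4 per group). Single Cre libraries moved this value. Without Cre replicate 4 it was -0.16 (unadjusted p = 0.00392, adjusted p = 0.998 by edgeR), and without Cre replicate 1 it was 0.03.

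The summed level of 7 markers of dentate granule neurons, cells rich in Adcy1, was also highest in Cre replicate 4. It was 425, 426, 394 and 523 CPM in Cre replicates 1 to 4, and 472, 481, 415 and 435 CPM in WT replicates 1 to 4. Cre replicate 4, WT replicate 2, WT replicate 1 and WT replicate 4 held the 4 highest values of both Adcy1 and the sum, in this order. Below them the orders differed: the sum was lowest in Cre replicate 3 (394 CPM) and Adcy1 in Cre replicate 1 (1068 CPM). Of the 7 markers, only C1ql2 and Tdo2, named after their values were seen, did not peak in Cre replicate 4. C1ql2 was highest in Cre replicate 1 (101 CPM, with 94.1 CPM in Cre replicate 4). Tdo2 was highest in WT replicate 1 (6.96 CPM, with 4.93 CPM in Cre replicate 4). Of the 7 markers 3 had a fold change above 0 and 4 below (median log2 fold change -0.01), and 0 passed by edgeR. In bulk tissue, fewer cells of a type and less RNA per cell cannot be told apart. The part of these markers in the spread of Adcy1 was not tested.

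**Figure D3:**
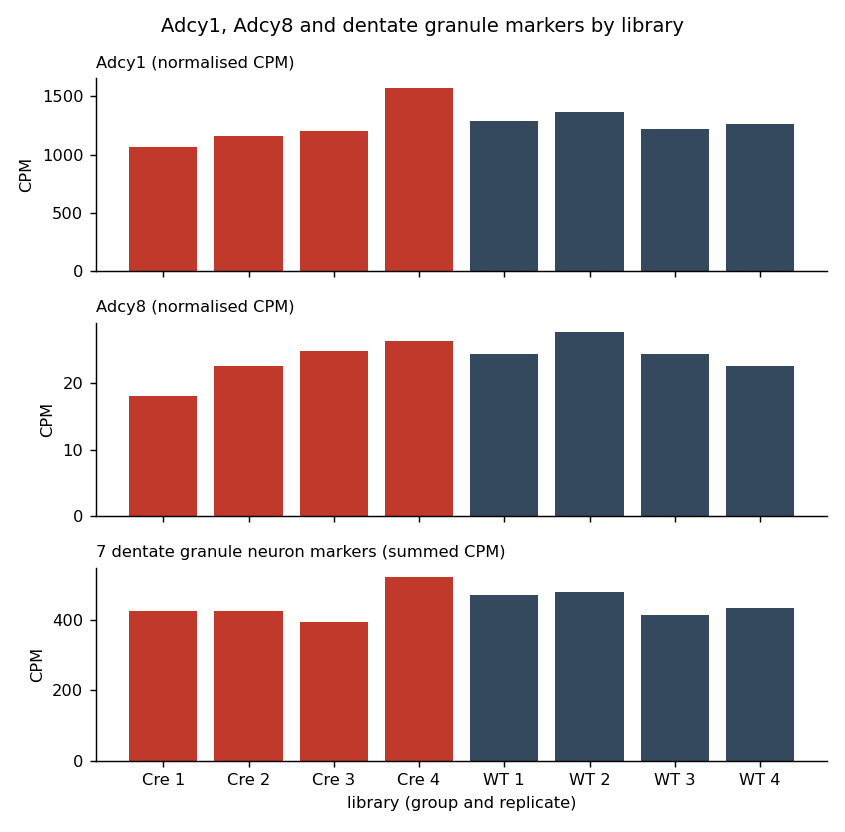
CPM (vertical axes, from 0) of Adcy1, of Adcy8 and summed over 7 dentate granule neuron markers in each library, with Cre replicates left of WT replicates. Cre replicate 4 has the highest Adcy1 (1576 CPM) and the highest marker sum (523 CPM), and Cre replicate 1 the lowest Adcy1 (1068 CPM) and the lowest Adcy8 (18.1 CPM).

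Adcy8, the other strongly calcium-stimulated cyclase, had 18.1, 22.6, 24.9 and 26.4 CPM in Cre replicates 1 to 4, and 24.5, 27.7, 24.4 and 22.6 CPM in WT replicates 1 to 4. Cre replicate 1 had the lowest value of the 8, and the rest of both groups overlapped. Adcy8 averaged 23.0 ± 3.62 CPM in Cre and 24.8 ± 2.12 CPM in WT (SD, n = 4 each), with a log2 fold change of -0.11 (SE 0.10) and a 95% confidence interval from -20.3% to 7.96%. It did not pass (adjusted p = 0.999 by edgeR; exact permutation p = 0.486, n = 4 per group). The value was -0.01 without Cre replicate 1 and -0.18 without Cre replicate 4. Per kb, Adcy1 exceeded Adcy8 by 31.4 to 38.9 times in Cre libraries and by 32.02 to 36.3 times in WT libraries. This ratio overlapped between the groups.

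Adcy3 was the member with the smallest p. It had 73.4, 77.0, 74.0 and 74.1 CPM in Cre replicates 1 to 4, and 74.9, 78.0, 83.3 and 83.9 CPM in WT replicates 1 to 4. All Cre libraries but replicate 2 lay below the lowest WT library, and Cre replicate 2 lay between the lower WT libraries. The means were 74.6 ± 1.59 CPM in Cre and 80.0 ± 4.36 CPM in WT (SD, n = 4 each), a log2 fold change of -0.10 (SE 0.04). The 95% confidence interval ran from -12.8% to -0.264%, with an unadjusted p = 0.0428 and an adjusted p = 0.999 by edgeR, and an exact permutation p = 0.0571 (n = 4 per group; the smallest possible is 0.0286). Adcy3 therefore did not pass. The authors' deposited table gives it a log2 fold change of -0.10 and a p-value of 0.0832.

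Of the beta-gamma-stimulated cyclases, Adcy2 had the smallest spread over all 8 libraries (SD of log2 CPM 0.03). Its level was 156, 161, 156 and 162 CPM in Cre replicates 1 to 4, and 160, 162, 154 and 156 CPM in WT replicates 1 to 4. Both groups covered nearly the same range. Adcy2 averaged 159 ± 3.45 CPM in Cre and 158 ± 3.62 CPM in WT (SD, n = 4 each), and its log2 fold change was 0.01 (SE 0.04; adjusted p = 0.999 by edgeR; exact permutation p = 0.714, n = 4 per group). Its 95% confidence interval, from -4.93% to 6.07%, was the narrowest of the 8.

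Adcy7 was the least abundant member and had the widest interval. It had 5.48, 3.21, 3.86 and 3.50 CPM in Cre replicates 1 to 4, and 3.88, 4.59, 4.27 and 3.33 CPM in WT replicates 1 to 4. Cre replicate 1 was the highest library and Cre replicate 2 the lowest, so the WT range lay inside that of Cre. These levels rest on 68 to 131 counts per library, for which counting alone gives a coefficient of variation of 9.96%, against 25.2% seen in Cre and 13.5% in WT. Adcy7 averaged 4.01 ± 1.01 CPM in Cre and 4.02 ± 0.54 CPM in WT (SD, n = 4 each). The log2 fold change was -0.002 (SE 0.17), with a 95% confidence interval from -23.2% to 29.8% (adjusted p = 0.999 by edgeR; exact permutation p = 0.886, n = 4 per group). In Cre replicate 1, where Adcy7 was highest, the summed microglia markers were highest too, at the values given above, and so was the sum of 7 endothelial markers (156 CPM, with 128 to 139 CPM in Cre replicates 2 to 4 and 117 to 151 CPM in WT). The same library had the highest sums of 8 astrocyte markers (6009 CPM, with 5363 to 5673 CPM in Cre replicates 2 to 4 and 4973 to 5351 CPM in WT), of 8 oligodendrocyte markers (5179 CPM, with 4040 to 4840 CPM and 4018 to 4468 CPM in these) and of 6 oligodendrocyte precursor markers (328 CPM, with 279 to 309 CPM and 292 to 297 CPM in these). Single markers, named here after their values were seen, did not all peak in Cre replicate 1. Of the precursor markers only Olig1 did. Pdgfra had 56.4 CPM there, with 53.0 to 61.4 CPM in Cre replicates 2 to 4 and 55.8 to 61.8 CPM in WT. Of the astrocyte markers, Slc1a3, Aldh1l1, Gja1 and Aldoc peaked in Cre replicate 3. Beyond Cre replicate 1 the microglia sum did not follow Adcy7. Cre replicate 2, lowest in Adcy7, had the next highest microglia sum (463 CPM). WT replicates 2 and 3, next highest in Adcy7, had the lowest microglia sums (427 and 418 CPM). The endothelial sum was next highest in WT replicate 2 (151 CPM), like Adcy7, and lowest in WT replicate 4 (117 CPM). Of its markers only Flt1, Kdr and Slco1a4 peaked in Cre replicate 1. Cldn5 peaked in WT replicate 1, and Pecam1, Tek and Emcn in WT replicate 2. Emcn was lowest in Cre replicate 1 (2.17 CPM). Of the endothelial markers 3 had fold changes above 0 (median -0.01), and 0 passed by edgeR. The part of all these markers in the level of Adcy7 was not tested. Without Cre replicate 1, the log2 fold change of Adcy7 was -0.19.

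The calcium- and Gi-inhibited cyclases were close between the groups. Adcy5 had 194, 193, 203 and 186 CPM in Cre replicates 1 to 4, and 198, 192, 205 and 210 CPM in WT replicates 1 to 4. The lowest value belonged to Cre replicate 4, and the other Cre libraries fell within the WT range. With means of 194 ± 6.96 CPM in Cre and 201 ± 7.90 CPM in WT (SD, n = 4 each), the log2 fold change was -0.05 (SE 0.04; adjusted p = 0.999 by edgeR; exact permutation p = 0.229, n = 4 per group). The 95% confidence interval ran from -9.34% to 2.64%. Striatal tissue would bring Adcy5 with it, and the 8 striatal markers summed to 77.5 to 96.2 CPM in Cre and 82.4 to 85.3 CPM in WT, with Drd2 at 2.17 CPM in Cre and 1.93 CPM in WT. The striatal sum was highest in Cre replicate 4 (96.2 CPM), where Adcy5 was lowest, and lowest in Cre replicate 2 (77.5 CPM). Of the striatal markers 8 had a fold change above 0 (median 0.09), and 0 passed by edgeR. Their part in the level of Adcy5 was not tested.

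Adcy6, a broadly expressed cyclase, had 61.4, 63.5, 55.9 and 57.9 CPM in Cre replicates 1 to 4, and 60.5, 63.4, 61.7 and 60.6 CPM in WT replicates 1 to 4. Cre replicates 3 and 4 lay below the WT libraries and Cre replicate 2 marginally above them. Adcy6 averaged 59.7 ± 3.41 CPM in Cre and 61.6 ± 1.35 CPM in WT (SD, n = 4 each), a log2 fold change of -0.05 (SE 0.05; adjusted p = 0.999 by edgeR; exact permutation p = 0.371, n = 4 per group). Its 95% confidence interval ran from -9.55% to 3.67%. The log2 fold change was -0.02 without Cre replicate 3 and -0.08 without Cre replicate 2. Per kb, Adcy5 exceeded Adcy6 by 2.87 to 3.42 times in Cre and by 2.86 to 3.26 times in WT.

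Adcy9 had 116, 119, 106 and 118 CPM in Cre replicates 1 to 4, and 117, 112, 125 and 119 CPM in WT replicates 1 to 4. Cre replicate 3 was the lowest library, and the others overlapped. Its means of 115 ± 6.11 CPM in Cre and 118 ± 5.39 CPM in WT (SD, n = 4 each) gave a log2 fold change of -0.04 (SE 0.05; adjusted p = 0.999 by edgeR; exact permutation p = 0.429, n = 4 per group) and a 95% confidence interval from -9.91% to 4.42%. Without Cre replicate 3 the log2 fold change was -0.01, and without WT replicate 2 it was -0.07.

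**Figure D4:**
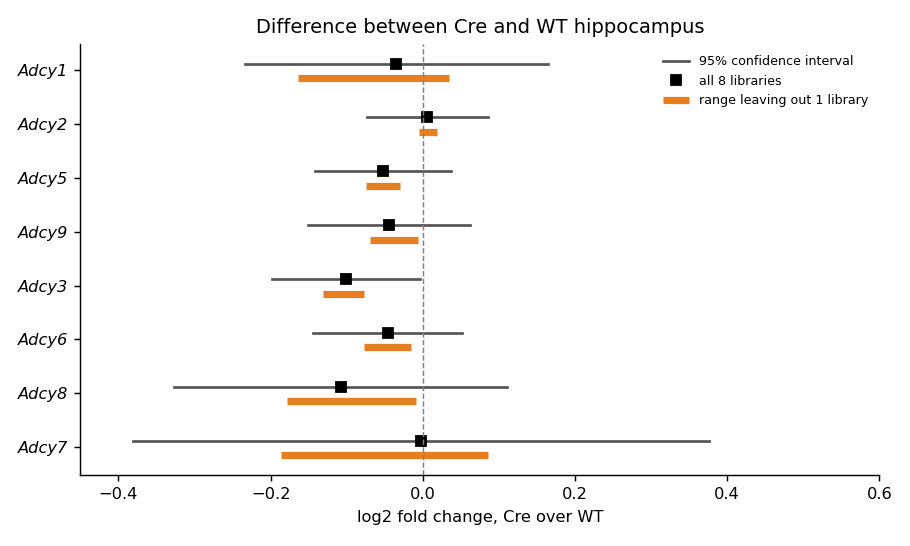
Log2 fold change of Cre over WT (horizontal axis) for the 8 genes, ordered by level per kb. Squares are the values from all 8 libraries with 95% confidence intervals, and thick bars the range of values when 1 library is left out; the interval of Adcy3 alone among the 8 ends below 0.

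Summed per kb over all 8 genes, cyclase transcripts stood at 195, 205, 205 and 237 CPM per kb in Cre replicates 1 to 4, and at 215, 221, 212 and 216 CPM per kb in WT replicates 1 to 4. The Cre libraries lay on both sides of WT, as for Adcy1, which contributes most. By regulatory class, the sum of Adcy1, Adcy3 and Adcy8 averaged 115 ± 18.2 CPM per kb in Cre and 118 ± 4.67 in WT. The sum of Adcy2 and Adcy7 averaged 38.3 ± 0.72 CPM per kb in Cre and 38.1 ± 0.89 in WT, and that of Adcy5 and Adcy6 35.8 ± 0.94 in Cre and 37.1 ± 0.98 in WT (SD, n = 4 each). The groups overlapped in each class.

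The genes around the cyclases in the cAMP pathway showed as little difference. Of 67 genes in 8 lists, 66 were tested and 0 were called by edgeR, DESeq2 or limma voom, beside the 0.0315% called over all genes. At an unadjusted p under 0.05 there were 2, both lower in Cre, where 3.50% of all genes had such a p. Separation without overlap was seen in 0 of the 66, against 2.31% of all genes. Fold changes lay above 0 in 33 and below 0 in 33, and on the log2 scale the median was -0.001 and the range -0.15 to 0.41. The end of that range was Vipr2, a receptor for vasoactive intestinal peptide named here after its value was seen, at 0.86 ± 0.33 CPM in Cre and 0.64 ± 0.15 CPM in WT (log2 fold change 0.41, SE 0.33).

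**Figure D5:**
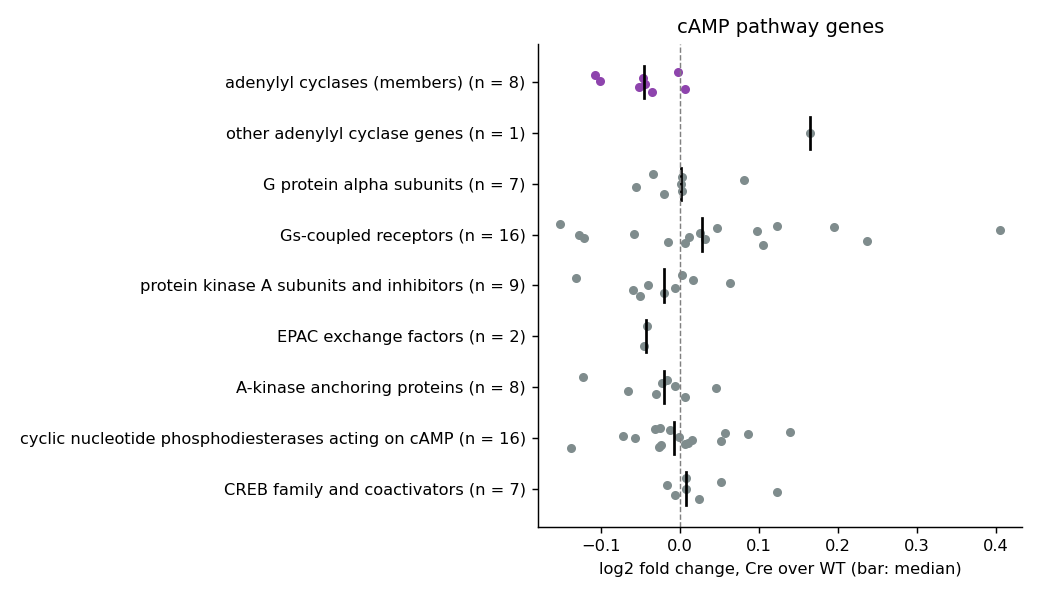
Log2 fold change of Cre over WT (horizontal axis) for the 8 adenylyl cyclases and for 66 other genes of the cAMP pathway in 8 lists, 1 point per gene, with the median of each list as a bar. The 8 cyclases lie between -0.11 and 0.01, and the list medians near 0 except for the single gene Adcy4 at 0.17.

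Upstream of the cyclases, 16 receptors that couple to Gs included 11 with a fold change above 0 and 5 below (median 0.03). Gpr12, an orphan receptor with constitutive Gs activity, had 19.4, 20.6, 20.9 and 20.2 CPM in Cre and 23.0, 20.4, 24.7 and 22.0 CPM in WT, with log2 fold change -0.15 (SE 0.06, unadjusted p = 0.0346, adjusted p = 0.999 by edgeR). Its relative Gpr3 lay the other way, at 5.66 ± 0.87 CPM in Cre and 4.95 ± 0.51 CPM in WT (log2 fold change 0.19, SE 0.13). Of the 7 G protein alpha subunits 4 lay above 0 and 3 below (median 0.001). The inhibitory subunit genes Gnai3 (35.4 ± 0.84 CPM in Cre, 33.4 ± 1.87 CPM in WT) and Gnai1 (207 ± 9.66 CPM in Cre, 216 ± 6.05 CPM in WT) had the smallest p of that list, in opposite directions. Of the other adenylyl cyclase genes, Adcy4, found mainly in vessels, stood at 2.40 ± 0.48 CPM in Cre and 2.13 ± 0.82 CPM in WT, and Adcy10, the soluble cyclase, did not pass the filter on low counts.

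Downstream, the 9 genes of protein kinase A subunits and inhibitors had 3 fold changes above 0 and 6 below (median -0.02). Prkar1a, a regulatory subunit gene, had 643, 718, 711 and 690 CPM in Cre and 720, 723, 711 and 725 CPM in WT (log2 fold change -0.06, SE 0.04). Prkaca, a catalytic subunit gene, had 194 ± 4.62 CPM in Cre and 201 ± 5.50 CPM in WT. Both EPAC genes lay slightly below 0, with Rapgef4 at 452 ± 29.3 CPM in Cre and 465 ± 15.2 CPM in WT, and Rapgef3 at 33.4 ± 2.96 CPM in Cre and 34.5 ± 3.06 CPM in WT. Of 8 genes of A-kinase anchoring proteins, which tether the kinase, 2 lay above 0 and 6 below (median -0.02), among them Akap6 with 242 ± 11.4 CPM in Cre and 254 ± 3.14 CPM in WT. Of 16 phosphodiesterase genes, whose products break down cAMP, 7 lay above 0 and 9 below (median -0.01). Pde1a, a calmodulin-activated phosphodiesterase gene, had 200, 241, 219 and 194 CPM in Cre and 228, 223, 243 and 245 CPM in WT, with log2 fold change -0.14 (SE 0.06, unadjusted p = 0.0465, adjusted p = 0.999 by edgeR). Pde8a had 19.99 ± 2.65 CPM in Cre and 18.1 ± 1.72 CPM in WT. Among 7 CREB family and coactivator genes 5 lay above 0 and 2 below (median 0.01), with Atf1 at 12.01 ± 0.72 CPM in Cre and 11.0 ± 0.57 CPM in WT, and Crtc3 at 27.9 ± 1.08 CPM in Cre and 26.9 ± 1.82 CPM in WT.

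Profiles over the 8 libraries were compared for the members that varied most on the log2 scale, Adcy7 and Adcy8. The measure was the root mean square distance between mean-centred log2 CPM, taken over 14190 genes with a mean of at least 1 CPM. Among the nearest to Adcy8 were Astn2, a gene of neuronal migration (distance 0.04), and Galnt13, which encodes a glycosyltransferase (0.06), beside a median distance of 0.20 over all these genes. Astn2 had 29.9, 34.2, 40.4 and 41.1 CPM in Cre replicates 1 to 4 and 38.7, 42.002, 37.8 and 35.9 CPM in WT replicates 1 to 4, with Cre replicate 1 lowest as for Adcy8. Nearest to Adcy7 were Gm36989 (0.08), Vwa1, which encodes an extracellular matrix protein (0.09), and Lsp1, which encodes a protein of leukocytes (0.09), beside a median of 0.26. Vwa1 had 28.5, 18.1, 21.01 and 18.5 CPM in Cre replicates 1 to 4 and 23.3, 22.7, 21.8 and 16.9 CPM in WT replicates 1 to 4. These distances describe 8 libraries, which share their depth and tissue make-up with every gene.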

How the data were processed

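Poly(A) RNA from hippocampus was sequenced from 8 libraries with a directional kit, as paired reads in a single lane, per the labels' protocols. The authors deposited raw counts, 1 whole number for each gene symbol in each library. The submitters' processing notes list GRCm38, STAR 2.6.1d, edgeR 3.11 and featureCounts. Neither the strand setting nor the annotation release is given in the sources used here. The authors' deposited table of their own comparison holds log2 fold changes, an average abundance on a log2 scale and as a linear score, a signed fold score, and a p-value not stated to be adjusted.

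Of 46078 entries, 272 repeat a symbol and were kept apart. The filter filterByExpr (minimum count 10, minimum total 15) left 15859 genes with 99.9% of each library's counts. Cre was compared with WT by edgeR 4.0.16 in R 4.3.3 (TMM normalization, quasi-likelihood test, no covariate, 2-sided), with Benjamini-Hochberg adjustment at 0.05. Log2 CPM used a prior count of 2, and the exact permutation test enumerated all 70 arrangements of the labels. DESeq2 1.42.0, limma 3.58.1 voom, other scalings, no filter, a replicate block and leaving out libraries were alternatives. The procedure was tested on simulated data. Named genes are the 8 members, the genes with the smallest p in each pathway list (up to 2) and the genes with the nearest profiles (3 each for a pair of members, of which 1 is not reported here). The members and all lists were chosen with earlier results of these data known. Confidence intervals are at 95%. Levels per kb used the non-overlapping exons of GENCODE M21.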

Additional observations from a re-analysis of the deposited data

Results flagged for a closer look

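Of 70 sets of 4 libraries examined for a library far from the others of its group, 4 stood out, where chance flags about 1 in 20. None was a set of values of the 8 cyclases. In Cre replicate 1 the summed microglia markers reached 596 CPM, with 453 to 463 CPM in Cre replicates 2 to 4. In the same library the summed thalamus and habenula markers were low at 107 CPM, with 119 to 119.9 CPM in Cre replicates 2 to 4. The WT libraries had 110 to 124 CPM of these markers. Of them, Rora and Nwd2 were lowest in Cre replicate 1 but Tac2 was highest there (2.22 CPM), named after their values were seen. Crtc3, a CREB coactivator gene, was also highest in Cre replicate 1, with 29.5 CPM against 27.2 to 27.6 CPM in Cre replicates 2 to 4. In WT, Crtc3 had 25.1 to 29.0 CPM. In WT replicate 1 the summed choroid plexus markers reached 979 CPM, with 24.4 to 32.7 CPM in WT replicates 2 to 4.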

How the results depend on the processing

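In all 15 alternatives 0 of the 8 cyclases and 0 of the pathway genes were called. Over all genes 5 were called, 7 with DESeq2 or without a filter, and 4 to 6 when 1 library was left out. Of 120 member values under the alternatives, 108 kept their direction and 12 turned, all in Adcy1, Adcy2 and Adcy7. Leaving out 1 library gave log2 fold changes of -0.164 to 0.0339 for Adcy1 (3.32e-05 without Cre replicate 2), -0.00567 to 0.0189 for Adcy2 and -0.186 to 0.0857 for Adcy7. Adcy7 was 0.00473 with library totals only, and Adcy1 was 0.035 without Cre replicate 1 and WT replicate 1 together, an alternative chosen after seeing the data. The cause was not tested. Unadjusted p of Adcy3 ran from 0.0100 to 0.127 and adjusted p from 0.891 to 0.99996. With no length correction 6 of the 8 cyclases held their rank, and with the longest transcript 8 did. The replicate numbers are not known to pair the libraries. Same-numbered libraries deviated together with correlations of -0.11 to 0.26, and 1 of the 4 Cre libraries was nearest to its own number. With 4 libraries per group, these correlations cannot decide whether the numbers pair them. With the replicate block 6 genes and 0 cyclases were called, and Adcy3 had -0.10. Depth limits Adcy7 most, at 68 to 131 counts per library.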

Other observations

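Akap13, which encodes an anchoring protein of protein kinase A, split the Cre libraries. It had 104 and 100 CPM in Cre replicates 1 and 2 and 68.3 and 66.0 CPM in Cre replicates 3 and 4, against 86.9 to 96.1 CPM in WT, with a log2 fold change of -0.12 (SE 0.13). The summed level of 7 markers of CA2 and CA3 pyramidal neurons was likewise higher in Cre replicates 1 and 2 than in 3 and 4, at 488, 524, 452 and 432 CPM in Cre replicates 1 to 4, against 458 to 510 CPM in WT. The sum of 6 markers of CA1 pyramidal neurons ran the other way, at 733, 682, 868 and 843 CPM in Cre replicates 1 to 4, against 760 to 853 CPM in WT. Single markers, named here after their values were seen, did not all follow their sum. Necab1 of the CA2 and CA3 list had 60.5, 64.02, 85.5 and 73.1 CPM in Cre replicates 1 to 4, Pcp4 also ran against the sum and Rgs14 was mixed, and of the CA1 list Fibcd1 (216, 225, 236 and 202 CPM) and Dcn (47.6, 30.4, 44.1 and 38.9 CPM) did not follow it. The part of these markers in the levels of Akap13 was not tested.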
